A study of Mus musculus with 6 samples.

Results

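The Notch pathway genes examined here were 10 rows of the deposited table of 23361 genes, taken by gene name. They were the receptors Notch1, Notch2 and Notch3, the ligands Dll1, Dll4, Jag1 and Jag2, the target genes Hes1 and Hey1, and the receptor-modifying enzyme Lfng. All 10 were present. RNA was sequenced from isolated CV/Fol taste cells, that is, cells of the circumvallate papilla at the back and the foliate papillae at the sides of the tongue, of C57BL/6 mice aged 2 or 6 months. The labels name no transgene, and no treatment but the enzyme solution used to free the cells. Per the methods of the study, the peeled epithelium was also kept in a calcium-free solution with BAPTA before the cells were collected. Each age had 3 libraries, each from cells pooled from 4 mice at 2 months and from 3 mice at 6 months, so that no value belongs to 1 animal. The unit is FPKM, the fragments assigned to a gene per kilobase of transcript and per fixed number of mapped reads. The table gives 1 FPKM value per gene and age, the authors' estimate over the 3 libraries. It carries no value of a single library and no read count, so no SD and no sequencing depth can be given. The p-values of the authors' own comparison were not used, no other test was run, and every difference below is a difference between 2 estimates.

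Notch receptors are single-pass membrane proteins that are activated by ligands of the Delta-like and Jagged families on a neighbouring cell. Ligand binding leads to cleavage by an ADAM protease and then by γ-secretase, and the freed intracellular domain enters the nucleus, joins the DNA-binding protein Rbpj and switches on genes such as Hes1 and Hey1. In stratified epithelia the pathway is known for its part in the step from dividing basal cells to differentiating cells, and in taste buds its components have been described in cells that are acquiring a taste cell fate.

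The label of the material was checked against cell markers. All 10 taste cell markers had at least 1 FPKM at both ages, with a summed level of 727.3 FPKM at 2 and 620.1 FPKM at 6 months, and Gnat3, the taste G protein gustducin, had 84.7 and 79.9 FPKM. The material also held epithelium that is not taste bud, since Krt5, a keratin of basal keratinocytes, had 2180 and 1962 FPKM, and the 6 basal keratinocyte markers summed to 4572 and 4537 FPKM. Of 8 endothelial markers, 6 were under 1 FPKM at both ages, with Pecam1 at 0.331 and 0.295 FPKM and Cdh5 at 0.0323 and 0.0951 FPKM. The highest on that list, Vwf, had 3.94 FPKM at 2 and 3.34 FPKM at 6 months. While 4 of 6 fibroblast markers were under 1 FPKM at both ages, Dcn had 42.0 and 27.3 FPKM. The 6 skeletal muscle markers summed to 9.25 FPKM at 2 and 20.7 FPKM at 6 months. In such bulk samples fewer cells of one type and less RNA per cell cannot be told apart.

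The members lie on 6 chromosomes of GRCm38, the build to which the reads were mapped. Notch1 (chromosome 2 from 26457903 to 26516663), Notch2 (chromosome 3 from 98013527 to 98150361) and Notch3 (chromosome 17 from 32120820 to 32166852) have the longest transcripts, of 9488, 10500 and 8016 bases in 34, 34 and 33 exons. Jag1 (chromosome 2 from 137081456 to 137116644) and Jag2 (chromosome 12 from 112907819 to 112929776) have 26 exons each. Dll1 (chromosome 17 from 15367354 to 15376872) and Dll4 (chromosome 2 from 119325784 to 119335962) have 11. Hes1 (chromosome 16 from 30064384 to 30067796), Hey1 (chromosome 3 from 8663359 to 8667256) and Lfng (chromosome 5 from 140607320 to 140615545) are short genes with 4, 5 and 8 exons. Exons of genes on the opposite strand overlap those of Notch1, Notch3, Dll1 and Dll4, and an exon of Gm42820 overlaps Notch2 on the same strand. Per the methods of the study, reads were mapped at the TopHat defaults, which do not use strand, so reads from partners on opposite strands cannot be told apart. Of these partners only Gm14207, which overlaps Dll4, is listed in the table, with 0.539 FPKM at 2 and 0.380 FPKM at 6 months, levels close to those of Dll4 itself.

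Sequences before the RefSeq gene starts were taken on GRCm38.p6 for the 8 members with an entry, which gave 9 windows of 250 bases. Hes1 and Hey1 had none. The gene spans given above come from GENCODE, and its starts can differ from those of RefSeq. The windows of Notch1 and Jag2, and the Dll1 window from 15375824 to 15376073, lie wholly inside the spans given above. The windows were searched on both strands for TGGGAA or, read from the other strand, TTCCCA, the core of the site that Rbpj binds, and for TGACTCA or TGAGTCA, the site of AP1 factors, the transcription factors at the centre of the study. The 2 motifs were counted separately. Lfng was the 1 member with the Rbpj core, with TTCCCA beginning 135 bases and TGGGAA beginning 108 bases before the start. That core is common, being present in 21.6% of all 32851 windows. The AP1 site was in none of the 9 windows of the members and in 4.46% of all windows. A match is a description of the letters only, and a missing match says nothing about the factor. All 9 windows had a GC content above the median of all windows, 52.4%, and the window of Jag2 reached 87.2%. Lfng is shown for its matches, which are in capitals, and Notch1 because its difference between the ages was the largest of the members. Bases that lie in annotated exons were left out at the end next to the start, 21 for Lfng and 2 for Notch1. The Lfng sequence is chr5:140607091-140607319 on the plus strand and the Notch1 sequence is chr2:26503825-26504072 on the minus strand, each written 5′ to 3′.
Lfng: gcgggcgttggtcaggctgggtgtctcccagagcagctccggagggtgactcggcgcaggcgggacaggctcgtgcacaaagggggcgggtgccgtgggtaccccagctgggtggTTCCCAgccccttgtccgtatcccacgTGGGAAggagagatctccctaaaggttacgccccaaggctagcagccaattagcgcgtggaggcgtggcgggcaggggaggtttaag
Notch1: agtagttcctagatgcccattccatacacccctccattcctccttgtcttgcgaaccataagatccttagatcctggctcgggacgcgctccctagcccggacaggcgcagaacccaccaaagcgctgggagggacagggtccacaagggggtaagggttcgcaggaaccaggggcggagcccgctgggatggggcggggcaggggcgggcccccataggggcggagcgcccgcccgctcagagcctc

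Among the members, Hes1 had the highest level at both ages and Dll4 the lowest. FPKM is scaled by transcript length, so levels of different genes can be set side by side. At 2 months the order from high to low was Hes1, Notch3, Jag2, Notch2, Jag1, Notch1, Hey1, Lfng, Dll1 and Dll4. At 6 months the order differed only in that Notch1 stood above Notch2 and Jag1. At 2 months Notch1, Jag1 and Notch2 lay between 17.1 and 18.2 FPKM, and without a spread between libraries their order cannot be settled. A mean FPKM of 1 or more over the 2 ages, the limit for counting a gene as measured, was reached by 9 of the 10 members and not by Dll4.

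**Figure D1:**
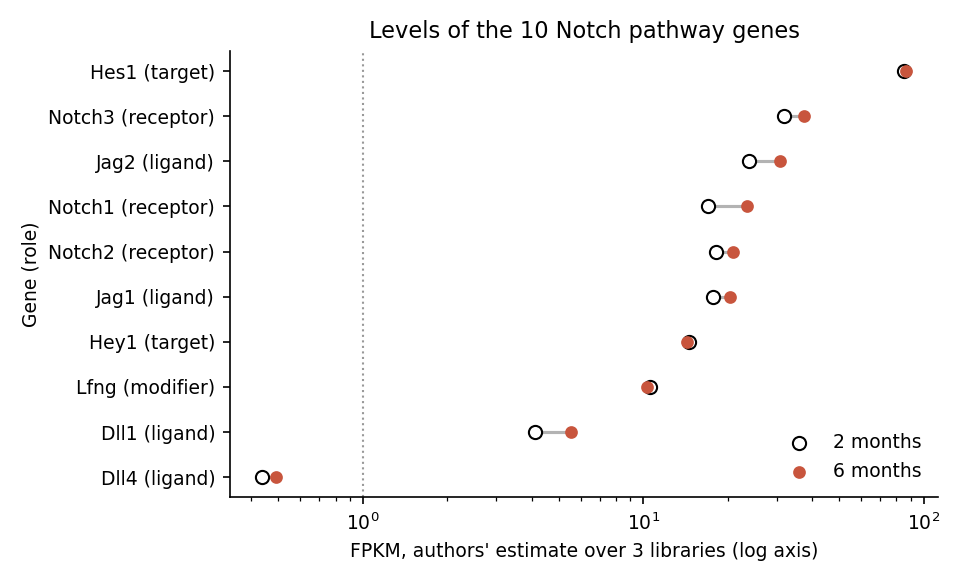
Level of each of the 10 Notch pathway genes in FPKM on a log axis, with open circles for 2 months, filled circles for 6 months and a dotted line at 1 FPKM. Each point is the authors' estimate over 3 libraries and has no error bar, the receptors and ligands lie to the right at 6 months, and Hes1, Hey1 and Lfng hardly part.

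All 3 receptors of the group had a higher value at 6 months. Notch1, which is known to promote differentiation in epidermis, had 17.1 FPKM at 2 and 23.5 FPKM at 6 months, a ratio of 1.37. Its difference on the log2(FPKM + 1) scale was 0.43, and 98.3% of the 12652 measured genes had a lower one. Notch3 had 31.9 FPKM at 2 and 37.4 FPKM at 6 months, a log2 difference of 0.22. Notch2 had 18.2 and 20.8 FPKM, a log2 difference of 0.19. The differences of these receptors lay above those of 93.9% and 91.8% of all genes. Notch4, a receptor best known from endothelium, was set beside them as the remaining receptor of the mouse. It had 3.65 FPKM at 2 and 3.24 FPKM at 6 months, a log2 difference of -0.13.

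Notch3 held the largest share of the receptor RNA at both ages. Of the summed FPKM of the 4 receptors, it held 45.1% at 2 months and 44.0% at 6 months. The share of Notch1 was 24.1% at 2 months and 27.6% at 6 months, that of Notch2 25.6% and 24.5%, and that of Notch4 5.16% and 3.82%. The summed receptor level was 70.8 FPKM at 2 and 84.9 FPKM at 6 months, a ratio of 1.20.

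Among the ligands, which are presented by the signal-sending cell, the Jagged genes held most of the RNA. Jag2 had 23.9 FPKM at 2 and 30.8 FPKM at 6 months, a ratio of 1.29 and a log2 difference of 0.36. Jag1 had 17.8 and 20.4 FPKM, a log2 difference of 0.18. Together these levels made Jag2 48.9% and Jag1 36.5% of the summed FPKM of the 5 canonical ligands at 2 months, and 51.7% and 34.2% at 6 months. The Delta-like ligands were weaker. Dll1 had 4.11 FPKM at 2 and 5.51 FPKM at 6 months, a ratio of 1.34 and a log2 difference of 0.35. Dll3, a divergent ligand that does not activate receptors on neighbouring cells, had 2.55 and 2.41 FPKM, a log2 difference of -0.06. Dll4, a ligand best known from sprouting blood vessels, had 0.437 and 0.489 FPKM. The summed ligand level was 48.8 FPKM at 2 and 59.6 FPKM at 6 months, a ratio of 1.22.

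**Figure D2:**
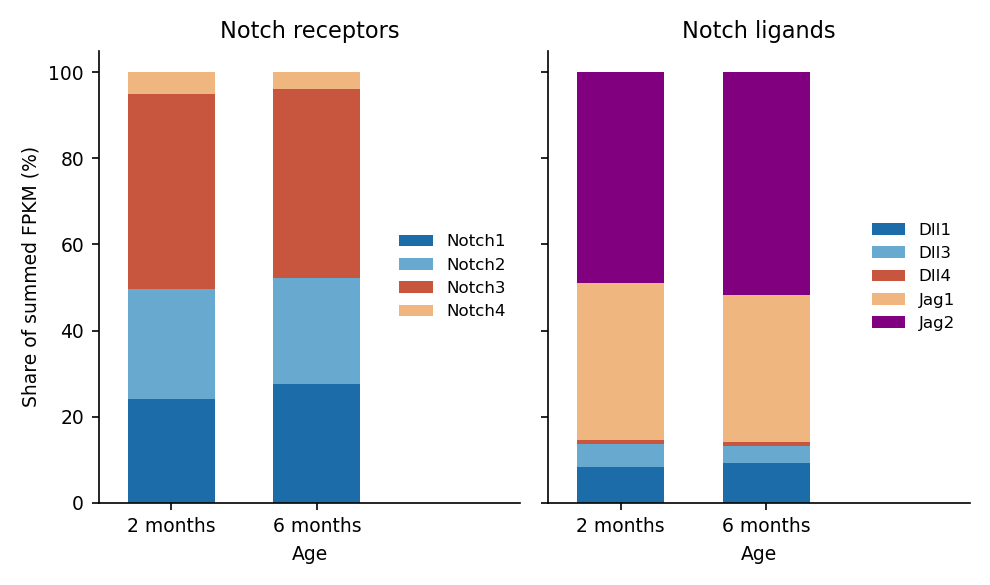
Share of each gene in the summed FPKM of the 4 Notch receptors (left) and the 5 canonical Notch ligands (right), in percent, with 1 stacked bar per age. Notch3 and Jag2 are the largest parts at both ages, and the share of Notch1 is 24.1% at 2 months and 27.6% at 6 months.

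The target genes and Lfng showed differences close to 0 before transcript length was taken into account. Hes1, a repressor of the basic helix-loop-helix class, had 85.1 FPKM at 2 and 86.7 FPKM at 6 months, a ratio of 1.02. Hey1, a related repressor, had 14.5 and 14.4 FPKM, a ratio of 0.988. Lfng, a Fringe enzyme that adds sugar to the receptors and alters which ligands they answer to, had 10.6 and 10.3 FPKM, a ratio of 0.974. The log2 differences were 0.03 for Hes1, -0.02 for Hey1 and -0.03 for Lfng, and the sign for Hey1 and Lfng flipped with the scaling of the 2 ages: it was positive for Hey1 with the same upper quartile, and for both genes with the same summed FPKM. Whether the target genes differed from the receptors and ligands in their change could not be tested with 1 value per age.

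With no test run, differences of 1.5-fold or more were counted on the log2(FPKM + 1) scale. This fold was reached by 0 of the 9 measured members, where 2.77% of all 12652 genes reached it in either direction, 1.05% higher and 1.72% lower at 6 months. With a limit of 25% above the lower value, 3 of the 9, Notch1, Jag2 and Dll1, were higher at 6 months and 0 were lower, where 2.95% of all genes were higher and 4.23% lower by that fold. Dll1 had a log2 difference of 0.35, Jag2 of 0.36 and Notch1 of 0.43, and the next member, Notch3, had 0.22, against a limit of 0.32. Relative to genes of like length and GC content, Notch1 was at 0.28 and no longer reached this limit, and Jag2 was at 0.32, just above it. Of the 9 members, 7 had a higher value at 6 months, and so did 46.3% of all genes. The median log2 difference was 0.19 over the 9 members and -0.01 over all genes, whose quartiles were -0.10 and 0.08.

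**Figure D3:**
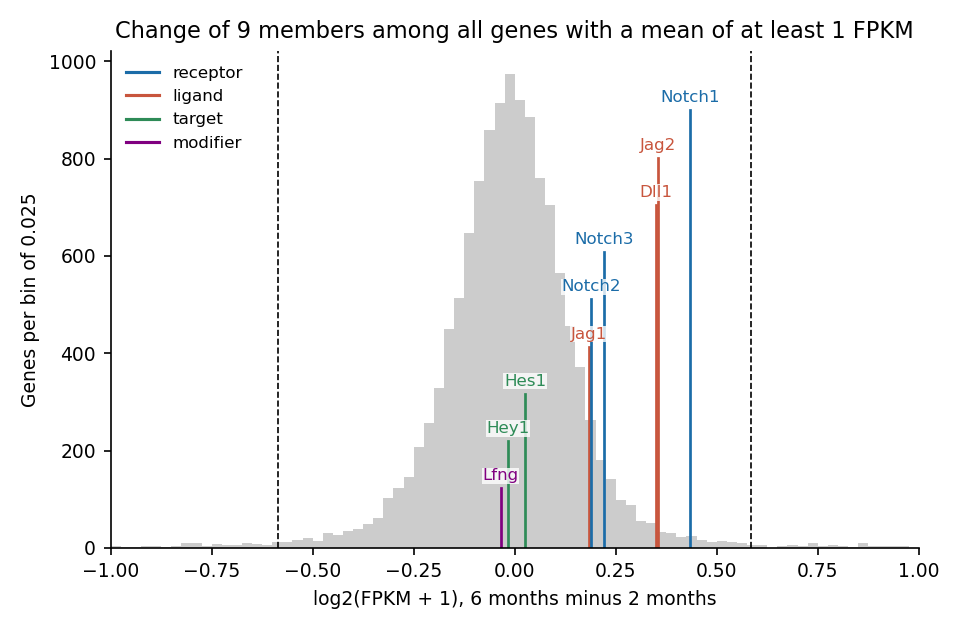
Number of genes by their difference in log2(FPKM + 1), 6 months minus 2 months, in bins of 0.025, for all measured genes, with coloured lines for the 9 measured members (their heights only separate the labels) and dashed lines at 1.5-fold. The 3 receptors and the ligands Jag1, Jag2 and Dll1 lie in the right flank, at 0.18 to 0.43, and no member passes a dashed line, while 202 genes beyond 1 in size are not drawn.

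The difference between the ages moved with transcript length in the whole table, and the receptors are long. The median log2 difference was -0.07 for the 2141 genes with transcripts over 1000 and up to 2000 bases, -0.02 for the 5055 genes up to 4000 bases and 0.02 for the 2807 genes up to 6000 bases. Among the 523 genes with transcripts over 8000 and up to 12000 bases, which include the 3 receptors, it was 0.08, and 77.1% of them were higher at 6 months. Most genes as long as Notch2 and Notch3 thus had a higher value at 6 months, although the log2 differences of both, 0.19 and 0.22, lay above the upper quartile of the class, 0.14. A value at least 25% higher at 6 months, as Notch1 had on this scale, was seen in 1.91% of the genes in that class.

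After the median of its length class was subtracted, the log2 difference was 0.35 for Notch1, 0.14 for Notch3 and 0.11 for Notch2. It was 0.37 for Dll1, 0.34 for Jag2 and 0.17 for Jag1, whose transcripts are shorter. When classes of length and GC content were used, Notch1 had 0.28, Notch3 0.07 and Notch2 0.09, in classes of 43 to 93 genes. All 6 measured receptors and ligands of the group stayed above the median of their class in both cases. So did Hes1, at 0.10 in both, which is close to the values of Notch2. Hey1 was at 0.01 relative to its length class and -0.0003 relative to the length and GC class, and Lfng at -0.01 and -0.04. The part of length and of base composition in the values of the receptors was not tested further.

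**Figure D4:**
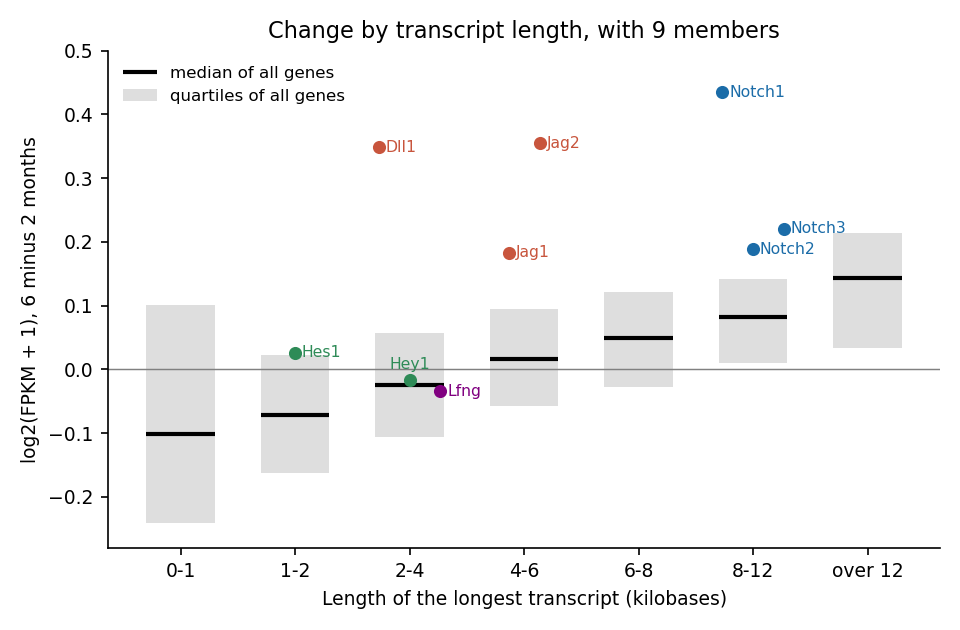
Difference in log2(FPKM + 1), 6 months minus 2 months, by the length of the longest transcript in kilobases, with grey bars for the quartiles and black lines for the median of all genes in each of 7 length classes, and coloured points for the 9 measured members (horizontal offsets only separate them). The medians run from -0.10 in the shortest class to 0.14 in the longest. Notch1, Jag2 and Dll1 lie far above the bars of their classes, and Notch2, Notch3 and Jag1 lie above theirs by less. Hes1, at 0.03, lies just above its bar, which ends at 0.02, and Hey1 and Lfng lie within theirs.

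The rest of the pathway was described with 75 other genes in lists by role, of which 74 were found in the table. Of these, 62 were measured at a mean FPKM of 1 or more. None of the 62 reached 1.5-fold, where 2.77% of all genes did, and 60 of the 62 had a log2 difference under 0.25 in size, as did 88.1% of all genes. The median was 0.01, with 32 genes higher and 30 lower at 6 months. A scaling of the 6 month values to the same upper quartile moved this split to 41 of 62 higher. With the same summed FPKM without small RNA genes it was 52 of 62. That sum still includes Krt4, listed at 7334 FPKM at 2 months and at 0 at 6 months, and the part of such values was not tested. Both scalings also moved the median of all genes, from -0.01 to 0.01 and 0.07. The share of all genes higher under these scalings was not computed, so these splits are not a result about the pathway.

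Genes of the proteolytic steps ranged widely in level. Psenen, a subunit of γ-secretase, was the highest of them with 134.5 FPKM at 2 and 117.8 FPKM at 6 months, a log2 difference of -0.19. The lowest measured gene was Aph1b, a subunit of the same enzyme, with 3.39 and 3.79 FPKM, and Aph1c was under the limit. Of the 9 measured genes of this list, 8 had a lower value at 6 months, where 46.3% of all genes had a higher one. The median of the list was -0.02 and that of all genes -0.01. Of the 8, Ncstn, Aph1a and Adam17 had log2 differences of only -0.001, -0.009 and -0.008. Adam10, the protease of the first cut, had 34.0 and 33.4 FPKM, and Ncstn, another γ-secretase subunit, had 41.0 FPKM at both ages. Among the other genes for sugar modification of the receptors, 4 of 7 were higher and 3 lower, and Rfng was the highest with 20.5 and 19.8 FPKM. Poglut1, which adds glucose to receptor repeats, had the most negative log2 difference of the 62 genes, -0.24, with 11.4 FPKM at 2 and 9.56 FPKM at 6 months.

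In the nuclear complex, 6 of 8 measured genes had a higher 6 month value, where 46.3% of all genes did, and the median log2 difference was 0.11. The median of their length classes was 0.03, and 6 of the 8 lay above the median of their own class. Rbpj, the DNA-binding partner of the cleaved receptor, had 10.01 FPKM at 2 and 10.8 FPKM at 6 months. Snw1 was the most abundant gene of the list, with 44.7 and 43.2 FPKM, and the co-activator Maml3 had the largest log2 difference, 0.24. Of the 12 co-repressor genes, 7 were higher and 5 lower, with Ctbp1 the highest at 77.6 and 75.6 FPKM. Fhl1 on that list had 1.52 FPKM at 2 and 2.09 FPKM at 6 months, a ratio of 1.38 and a log2 difference of 0.30. Of the 18 genes for endocytosis and ubiquitin ligases, which govern ligand activity and receptor turnover, 12 were higher and 6 lower, within -0.16 and 0.11, and Nedd4 was the highest with 89.8 and 93.1 FPKM. Of 8 non-canonical ligands, 3 passed the limit on expression, and Nov was the highest with 47.0 and 46.0 FPKM.

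**Figure D5:**
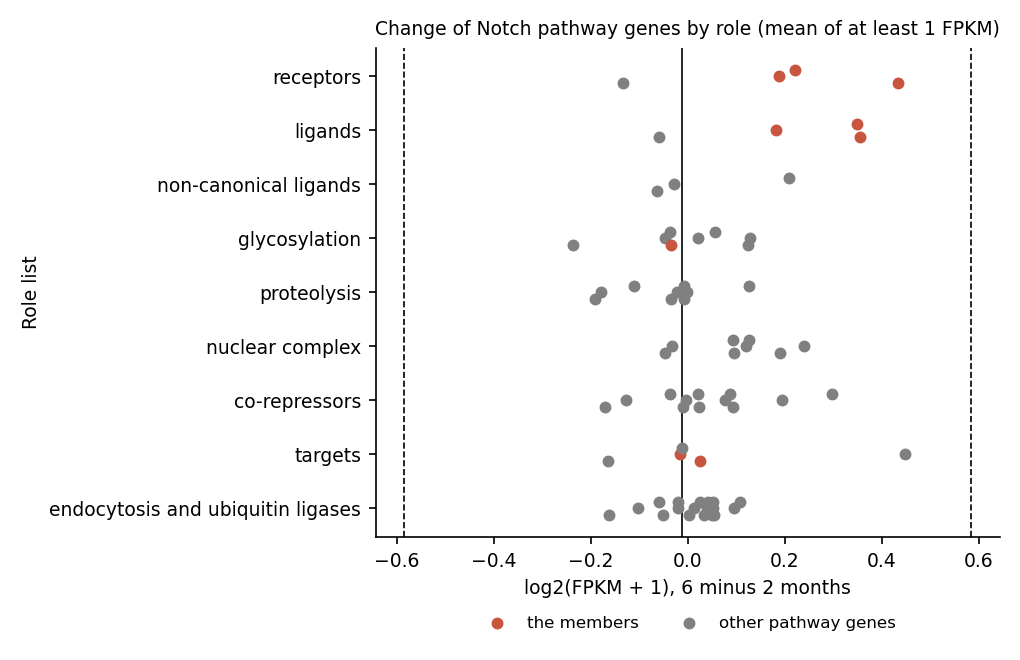
Difference in log2(FPKM + 1), 6 months minus 2 months, of each measured Notch pathway gene, in 9 lists by role, with the members in red, the other genes in grey, a solid line at the median of all genes and dashed lines at 1.5-fold (vertical offsets only separate points). The members among receptors and ligands lie between 0.18 and 0.43, and most other genes lie nearer the solid line. Nrarp at 0.45 among the targets and Fhl1 at 0.30 among the co-repressors lie farthest to the right of these.

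Among the other genes on the target list, 5 of 8 had a mean under 1 FPKM, including Hes5 with 0.375 and 0.307 FPKM. Hes6, which counteracts Hes1 in other tissues, was close to Hes1 in level, with 80.2 FPKM at 2 and 71.5 FPKM at 6 months, a log2 difference of -0.16. Nrarp, a target that feeds back to restrain the receptors, had 42.6 FPKM at 2 and 58.5 FPKM at 6 months, a ratio of 1.37. Its log2 difference of 0.45 was the largest of the 62 genes, slightly above that of Notch1, and remained at 0.47 after the median of its length class was subtracted. Heyl had 1.96 and 1.93 FPKM. The target list thus held the largest difference of the 62 genes, unadjusted values close to 0 for Hes1, Hey1 and Heyl, and a lower value for Hes6. Whether the genes on this list, Hes6 among them, answer to Notch in these cells was not tested. Nrarp, Poglut1, Adam10, Adam17, Ncstn, Aph1a, Aph1b, Rbpj, Maml3, Fhl1, Hes5 and Heyl were chosen for mention with their values known.

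Markers of several cell types also differed between the ages, beside the values of the receptors and ligands. Of the 10 taste cell markers, 6 were lower and 4 higher at 6 months. Krt8 and Krt18, keratins of taste bud cells, had log2 differences of -0.25 and -0.43 and made up most of the difference in the summed level, which was 727 FPKM at 2 and 620.1 FPKM at 6 months. The 4 higher markers were Snap25 with 0.15, Pkd2l1 with 0.16, Car4 with 0.17 and Plcb2 with 0.05. Among the 6 basal keratinocyte markers, 3 were higher, including Krt14 and the integrin gene Itgb4 with 0.25 each, and 3 were lower, including Krt5 with -0.15. Of the differentiated keratinocyte markers, Krt4 is listed at 7334 FPKM at 2 months and at 0 at 6 months, and Krt13 at 0 at both ages, which can be a failed estimate. The other 4, of which Krtdap was the highest, were all lower at 6 months, with a sum of 5871 FPKM at 2 and 5177 FPKM at 6 months, most of it Krtdap. Among them Krt10 had 149.7 and 70.5 FPKM, a ratio of 0.471 and past 1.5-fold, and Krt1 had 40.7 and 27.2 FPKM, a ratio of 0.667. All 6 skeletal muscle markers were higher, 5 of them by at least 1.5-fold, with Tnnc2 the most abundant and a sum of 9.25 FPKM at 2 and 20.7 FPKM at 6 months. The 8 endothelial markers, of which Vwf was the highest, summed to 5.96 and 5.30 FPKM and the 6 mural cell markers, led by Acta2 and listed because Notch3 is known from such cells, to 3.59 and 4.36 FPKM. Of the mural markers 4 of 6 were higher at 6 months, including Cspg4 with 0.781 and 1.41 FPKM and Des with 0.337 and 0.532 FPKM, while Rgs5 and Myh11 were lower and under 1 FPKM at both ages. The 6 fibroblast markers summed to 43.6 and 28.7 FPKM, of which Dcn made up 42.0 and 27.3 FPKM, the 6 leukocyte markers to 22.6 and 20.4 FPKM, with Cd68 the highest, and the 6 Schwann cell markers to 23.6 and 22.9 FPKM, with Mbp the highest. The part of cell composition in the values of the Notch genes was not tested.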

How the data were processed

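RNA of 6 libraries, 3 per age, was poly A selected and sequenced. The authors mapped reads to GRCm38/mm10 with TopHat (version 2.0.7), quantified RefSeq genes with Cufflinks (version 2.1.1) and ran Cuffdiff between the ages. The deposited table holds 1 FPKM value per gene and age, the authors' estimate over the 3 libraries. The library normalization is not given in the sources used here. It also holds a p-value per gene from the authors' own comparison, which was not used. The column of each age was recognised by the letter that the table and the sample titles share. Depth is unknown.

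Differences were computed as log2(FPKM + 1), 6 minus 2 months, on all genes. A gene counted as measured where its mean FPKM was 1 or more, and 1.5-fold was the limit for a count. With 1 value per age, no test was run on these values. Members and lists were chosen with earlier results of these data known. Of the pathway lists, 1 is not reported here. Named genes were the members, the highest gene of each list and any pathway gene past 1.5-fold, and other pathway genes and cell markers were picked with their values known. Positions and the longest transcript per gene came from GENCODE release M21, which gave a length for 99.1% of the measured genes. The calculation was run on simulated data with known changes and no noise, which checks the arithmetic only. Alternatives were the pseudocount, the filter, the fold, the scaling and, chosen after seeing the data, length and GC classes and a narrower range of expression. Python 3.11.15, numpy 2.4.6, pandas 2.3.3 and matplotlib 3.10.9 were used.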

Additional observations from a re-analysis of the deposited data

How the results depend on the processing

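No paired analysis was possible because each age has 1 value, and for the same reason no replicate was left out. Of 60 values of the 10 members under the other settings, 57 stayed within 0.1 of the reported log2 difference. That margin is larger than the differences of Dll4, Hes1, Hey1 and Lfng, so staying within it does not show a stable size. Within it, Notch2 went from 0.19 to 0.09 relative to the length and GC class. Hes1 went from 0.03 to 0.12 with the same summed FPKM. The 3 receptors, the 4 ligands and Hes1 kept a higher value at 6 months in every setting tried for them. The exceptions were Hey1 and Lfng, which changed sign: Hey1 was at 0.01 with the same upper quartile, 0.07 with the same summed FPKM and 0.01 relative to its length class, and Lfng was at 0.05 with the same summed FPKM. Relative to the length and GC class, Notch1 was at 0.28 and Notch3 at 0.07, and Dll4 was at 0.16 without a pseudocount.

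The number of members past the fold was 0 and became 3 with the limit of 25%. The number of other pathway genes went from 0 to 1, Nrarp. The share of all genes was 2.77%, and it was 7.18% with the limit of 25%, 1.6% at 2-fold and 1.6% without a filter on expression. The median of the members ranged from 0.10 to 0.28 and that of the other pathway genes from -0.02 to 0.09. The 2 scalings multiplied the 6 month values by 1.02 and 1.07 and moved the median of all genes to 0.01 and 0.07. The factor of 1.07, from the summed FPKM, rests on a sum that includes Krt4. The table holds no counts or single libraries, so the differences were not set against the spread between pools here.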

Other observations

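The relation of the difference between the ages to transcript length reached across the whole table. In the 879 genes with transcripts of up to 1000 bases, the median log2 difference was -0.10 and 32.9% of the genes were higher at 6 months. In the 1018 genes over 6000 and up to 8000 bases, the median was 0.05 and 66.4% were higher, and in the 111 genes over 12000 bases, the median was 0.14 and 81.1% were higher. Genes are not independent replicates, and the cause was not tested. Among genes with a mean between those of Dll1 and Hes1, the lowest and highest measured members, 2.21% of 8416 were at least 25% higher at 6 months.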
